A study of Homo sapiens with 2 samples.

Results

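The genes described here encode integrin subunits, laminin chains and collagen chains. They were taken as all protein-coding genes in the platform annotation used here whose symbol is a single name starting ITGA or ITGB, LAMA, LAMB or LAMC with a number, or COL with a number, without antisense genes, divergent transcripts and pseudogenes. This gave 82 genes with 217 probe sets, among 19775 genes with a single symbol in all. Of the 82 genes, 25 encode integrin subunits, 10 laminin chains and 43 collagen chains, and the remaining 4 (ITGB1BP1, ITGB1BP2, ITGB3BP and ITGBL1) carry an ITGB name but encode no integrin subunit and are shown apart.

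Expression was measured on 2 arrays in HCT116, a long-established line of human colon cancer cells of epithelial origin. The JMJD1A/JMJD1B siRNA cells were given siRNAs against JMJD1A and JMJD1B (now KDM3A and KDM3B, demethylases of histone H3), and the control siRNA cells were given a control siRNA. All cells were grown in serum-containing DMEM, transfected with a lipid reagent and harvested 2 days later, and each group is 1 array of 1 culture. No replicate error, test or p-value can therefore be given for any difference below, since precision is limited by having 1 array a group. The siRNA sequences are not given in the sources used here, and unintended targets were not examined.

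Integrins are heterodimers of an alpha and a beta subunit that span the plasma membrane and bind the extracellular matrix outside and the actin or keratin cytoskeleton inside. Laminins are cross-shaped trimers of an alpha, a beta and a gamma chain, and together with type IV collagen they form the basement membrane on which colon epithelium sits. Collagens are triple helices of alpha chains, some of which form fibrils in connective tissue, some the network of the basement membrane and some single molecules in the plasma membrane.

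KDM3B read 496 on the JMJD1A/JMJD1B siRNA array and 3031 on the control array by its brightest probe set, a log2 ratio of -2.61. KDM3A read 3323 on the JMJD1A/JMJD1B siRNA array and 3884 on the control array, a log2 ratio of -0.22, which is smaller than the spread among probe sets of 1 gene given below. With the arrays set level on the hybridization controls described below, the KDM3A ratio would be -0.84. The arrays are named below by their labels. All 7 epithelial markers were above the signal filter defined below, with EPCAM at 19809 in JMJD1A/JMJD1B siRNA cells and 13794 in control siRNA cells. The dimmest of the 7 were CDX2, at 78.2 in JMJD1A/JMJD1B siRNA cells and 108 in control siRNA cells, and VIL1, at 104 and 86.2. Among the other markers, 6 of 8 fibroblast, 4 of 5 endothelial and 3 of 4 platelet markers were dim. Of 6 leukocyte markers 3 were dim, among them PTPRC at 12.4 in JMJD1A/JMJD1B siRNA cells and 8.22 in control siRNA cells, and CD3E, CSF1R and NCAM1 were measured, NCAM1 at 508 in JMJD1A/JMJD1B siRNA cells and 536 in control siRNA cells. The summed signal of those 6 was 713 in JMJD1A/JMJD1B siRNA cells and 703 in control siRNA cells, and their part in the values below was not tested. Hybridization control probe sets report transcripts added to the labelled material, and all 18 read higher in the JMJD1A/JMJD1B siRNA sample, with a median log2 ratio of 0.61. Log2 ratios below are on the scale of the deposited signals, and any between 0 and 0.61 would lie below 0 if the arrays were set level on these controls.

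Of the 82 genes, 45 reached the signal filter, a geometric mean of both arrays at or above 50.4, the middle value over all probe sets other than controls. These 45 are called measured, and each gene is given by its brightest probe set. They comprised 16 of the 25 integrin subunits, 8 of the 10 laminin chains, 18 of the 43 collagen chains and 3 of the 4 genes shown apart. The other 37 were dim. ITGB6, whose probe sets carry a second gene name in the platform annotation, did not meet the rule on single names and was not analysed here. Nearest to the filter were ITGAL inside it, with a geometric mean of 51.5, and COL4A3 outside it, with 45.3.

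On the JMJD1A/JMJD1B siRNA array, 8 of the 45 measured genes were higher than on the control array by 2-fold or more, and 3 were lower by 2-fold or more. Over all 12561 measured genes 8.91% were higher and 8.53% lower by that much. The higher genes were ITGA5, ITGB4, ITGB5, LAMB1, LAMB3, LAMC1, COL4A4 and COL13A1, and the lower ones LAMA2, COL4A6 and COL16A1. The log2 ratio was above 0 for 33 of the 45 genes, against 52.1% of all measured genes, and the median was 0.43, against 0.04 for all measured genes. In bulk RNA, fewer cells with a transcript and less of it per cell cannot be told apart.

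**Figure D1:**
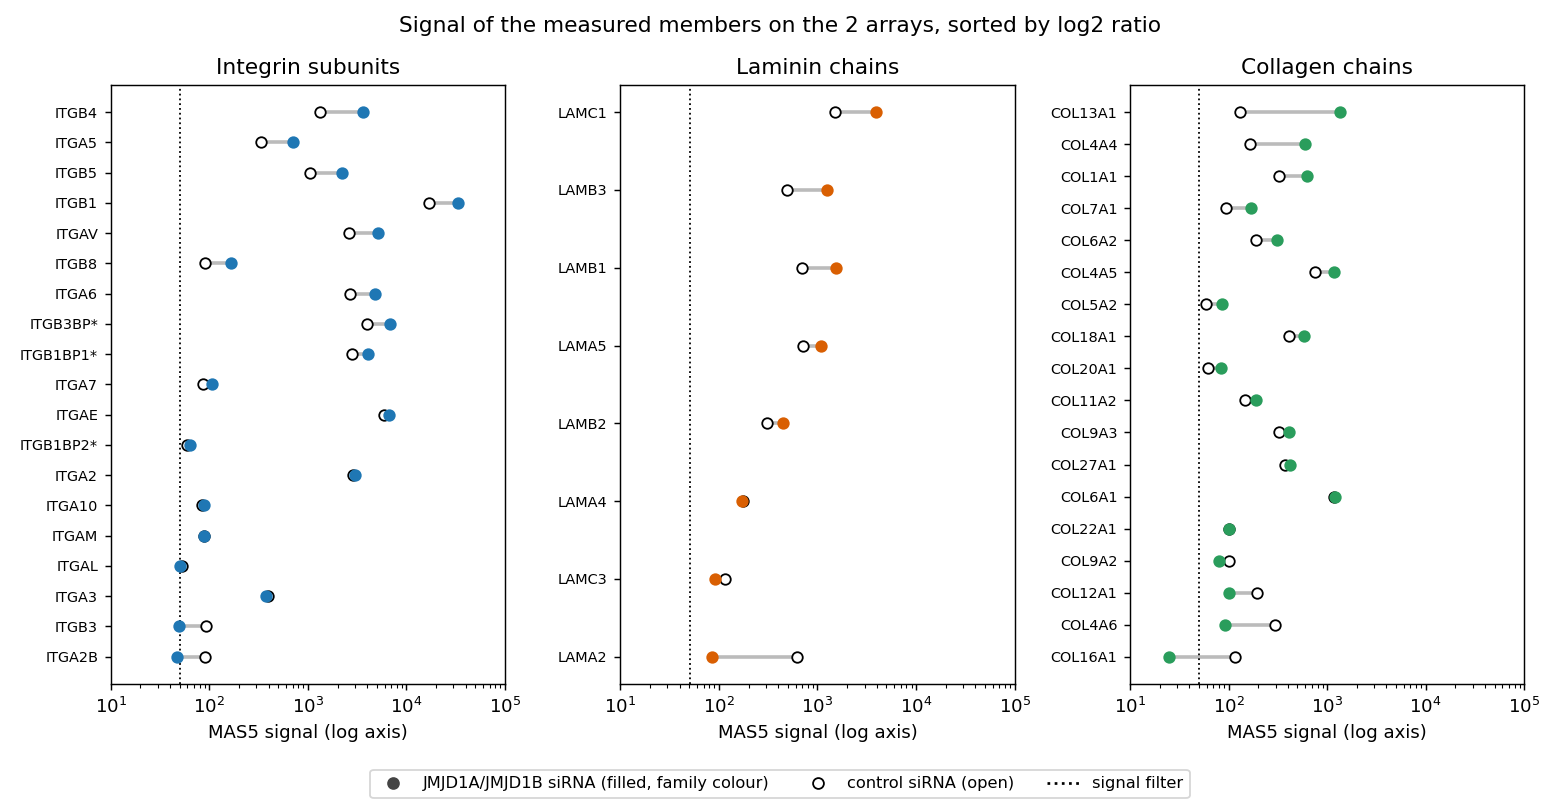
Signal of each measured gene on the JMJD1A/JMJD1B siRNA array (filled points) and the control siRNA array (open points), on a log axis, by family and sorted by log2 ratio; asterisks mark ITGB-named genes that are no subunit, and the dotted line is the signal filter of 50.4. The longest distances are those of COL13A1 (1347 in JMJD1A/JMJD1B siRNA cells and 129 in control siRNA cells) to the higher side and LAMA2 (85.3 in JMJD1A/JMJD1B siRNA cells and 618 in control siRNA cells) to the lower side.

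Of the 3 integrin subunits higher by 2-fold or more, 2 are beta subunits. ITGB1, the common partner of most alpha subunits in epithelial cells, read 33749 in JMJD1A/JMJD1B siRNA cells and 16914.5 in control siRNA cells, 1.995-fold higher and so just short of 2-fold. Its dimmer measured probe sets read 21007 and 16100 on the JMJD1A/JMJD1B siRNA array, against 8162 and 5583 on the control array. All 3 therefore lay on the higher side, at log2 ratios from 1.00 to 1.53. After loess, which removes the trend of the ratio with signal, ITGB1 stood at 0.61, and after quantile normalization at 0.52.

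ITGB4, which pairs with the ITGA6 product in hemidesmosomes and binds laminin, read 3594 in JMJD1A/JMJD1B siRNA cells and 1318 in control siRNA cells. This was 2.73-fold higher, and log2 ratios over its 3 measured probe sets ran from 0.57 to 1.45. ITGB5, a partner of the ITGAV product in vitronectin binding, read 2226 on the JMJD1A/JMJD1B siRNA array, against 1051 on the control array, 2.12-fold higher. Its 4 measured probe sets spanned 0.18 to 1.08 and averaged 0.62, so only the brightest reached 2-fold. ITGB8, another partner of the ITGAV product that takes part in activating latent TGF-beta, read 166 in JMJD1A/JMJD1B siRNA cells and 90.2 in control siRNA cells, a log2 ratio of 0.88. ITGB3, known from platelets and endothelium, went the other way, at 49.1 in JMJD1A/JMJD1B siRNA cells and 93.2 in control siRNA cells. As the first of these lies under the filter, it was at least 1.85-fold lower by this probe set, while a second probe set read 61.2 on the JMJD1A/JMJD1B siRNA array, against 60.3 on the control array.

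Among the alpha subunits, those for RGD-containing ligands and for laminin included the larger differences, and those for collagen did not. ITGA5, the fibronectin receptor subunit, read 705 in JMJD1A/JMJD1B siRNA cells and 332 in control siRNA cells, 2.12-fold higher. Median scaling of the arrays put ITGA5 at 0.998 and ITGB5 at 0.996 on the log2 scale, just short of 2-fold. ITGAV, which pairs with several beta subunits to bind vitronectin and latent TGF-beta, read 5098 in JMJD1A/JMJD1B siRNA cells and 2620 in control siRNA cells, a log2 ratio of 0.96. ITGA2B, the platelet fibrinogen receptor subunit, read 46.6 on the JMJD1A/JMJD1B siRNA array, against 89.5 on the control array, at least 1.78-fold lower against the filter. ITGA6, a laminin receptor subunit, read 4800 in JMJD1A/JMJD1B siRNA cells and 2708 in control siRNA cells, a log2 ratio of 0.83, and its second probe set had 1.29. ITGA3, which also serves as a laminin receptor subunit, was nearly level at 372 in JMJD1A/JMJD1B siRNA cells and 390 in control siRNA cells, and ITGA7, the laminin receptor subunit known from muscle, read 106 on the JMJD1A/JMJD1B siRNA array, against 85.4 on the control array.

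The collagen receptor subunit ITGA2 read 3018 in JMJD1A/JMJD1B siRNA cells and 2851 in control siRNA cells, and its second probe set had a log2 ratio of -0.29. ITGA10, also collagen-binding and known from cartilage, read 88.4 in JMJD1A/JMJD1B siRNA cells and 84.3 in control siRNA cells. Neither differed by more than the SD of 0.53 that a single probe set's log2 ratio showed among probe sets of the same gene, computed over 6192 genes. That SD covers probe behaviour on these arrays and not the spread between cultures.

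Of the alpha subunits of leukocyte integrins, ITGAE read 6679 in JMJD1A/JMJD1B siRNA cells and 5939 in control siRNA cells, a log2 ratio of 0.17. ITGAM read 87.5 on the JMJD1A/JMJD1B siRNA array, against 87.9 on the control array, and ITGAL 50.3 in JMJD1A/JMJD1B siRNA cells and 52.7 in control siRNA cells. The ITGAE product, carried by lymphocytes in epithelia, binds E-cadherin. ITGB7, which encodes the known partner of the ITGAE product, was dim, at 31.3 in JMJD1A/JMJD1B siRNA cells and 10.4 in control siRNA cells. Dim integrin genes were ITGA1, ITGA4, ITGA8, ITGA9, ITGA11, ITGAD, ITGAX, ITGB2 and ITGB7, with signals from 3.72 to 52.6 on either array. ITGA9 alone of these reached the filter on an array, at 52.6 in JMJD1A/JMJD1B siRNA cells and 10.4 in control siRNA cells.

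Of the genes shown apart, ITGB3BP, which encodes a centromere protein, read 6860 in JMJD1A/JMJD1B siRNA cells and 3963 in control siRNA cells, a log2 ratio of 0.79. ITGB1BP1, which encodes an adaptor that binds the cytoplasmic tail of the ITGB1 product, read 4112 in JMJD1A/JMJD1B siRNA cells and 2801 in control siRNA cells, a log2 ratio of 0.55, but a second probe set read 182 on the JMJD1A/JMJD1B siRNA array, against 352 on the control array, a ratio of -0.95. ITGB1BP2 stood at 0.11 and ITGBL1 was dim. Counting the measured genes of this group with the integrin subunits would leave the counts of genes past 2-fold as they are.

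Among the laminin chains LAMC1, LAMB1 and LAMB3 were higher by 2-fold or more and LAMA2 was lower by 2-fold or more. LAMC1, the gamma chain of most epithelial laminins, read 3930 in JMJD1A/JMJD1B siRNA cells and 1509 in control siRNA cells, 2.60-fold higher, and its second probe set read 1401 in JMJD1A/JMJD1B siRNA cells and 658 in control siRNA cells (log2 ratio 1.09). LAMB1, a beta chain that assembles with the LAMC1 product, read 1559 in JMJD1A/JMJD1B siRNA cells and 700 in control siRNA cells, 2.23-fold higher, with a second probe set at 904 in JMJD1A/JMJD1B siRNA cells and 544 in control siRNA cells. LAMB3, the beta chain of the laminin that anchors epithelia to the basement membrane, read 1245 in JMJD1A/JMJD1B siRNA cells and 489 in control siRNA cells, 2.54-fold higher, by its only measured probe set. LAMB2, known from neuromuscular and kidney basement membranes, read 444 on the JMJD1A/JMJD1B siRNA array, against 306 on the control array, a log2 ratio of 0.54.

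The alpha chains did not share this pattern. LAMA5, the main alpha chain of adult epithelial basement membranes, read 1077 in JMJD1A/JMJD1B siRNA cells and 717 in control siRNA cells, a log2 ratio of 0.59. LAMA4, known from blood vessels, read 170 in JMJD1A/JMJD1B siRNA cells and 176 in control siRNA cells. LAMA2, the alpha chain of muscle and nerve laminin, read 85.3 in JMJD1A/JMJD1B siRNA cells and 618 in control siRNA cells, 7.25-fold lower. Its dimmer measured probe sets read 85.2 and 97.2 on the JMJD1A/JMJD1B siRNA array, against 528 and 323 on the control array. All 3 were thus on the lower side, between -2.86 and -1.73, and all of these signals lay above the filter. LAMC3, a gamma chain, read 91.2 in JMJD1A/JMJD1B siRNA cells and 114 in control siRNA cells, a log2 ratio of -0.32, and LAMA1 and LAMB4 were dim, with signals from 12.2 to 39.8.

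**Figure D2:**
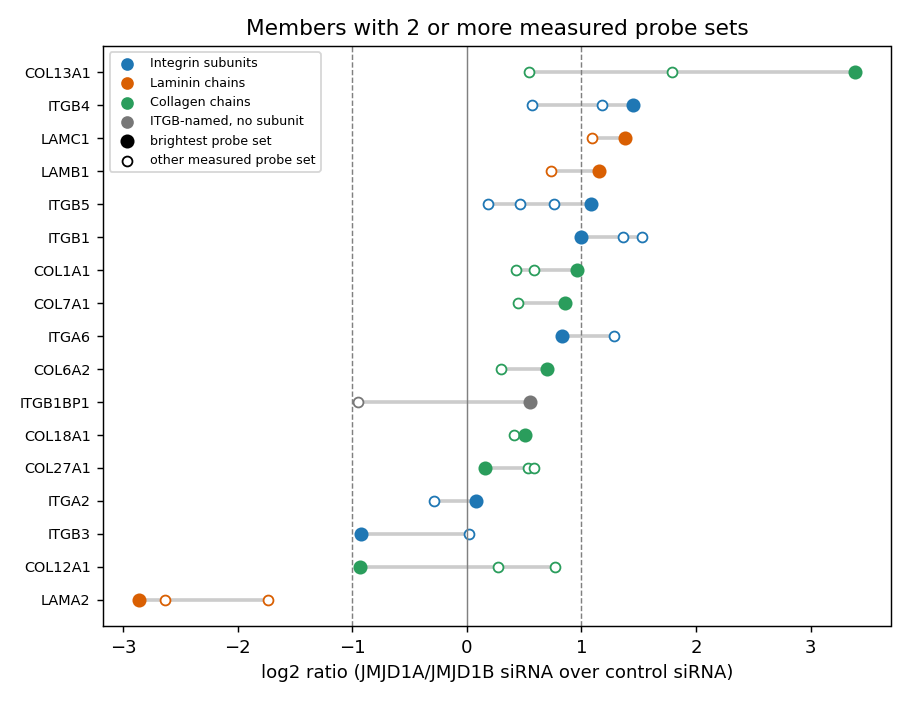
Log2 ratio (JMJD1A/JMJD1B siRNA over control siRNA) of every measured probe set for the 17 genes with at least 2 of them, with the brightest probe set filled and the others open; dashed lines mark 2-fold. The 3 LAMA2 points all lie below -1 and the 3 ITGB1 points between 1.00 and 1.53, while COL13A1 spans 0.55 to 3.38 and the points of ITGB1BP1, ITGA2, ITGB3 and COL12A1 lie on both sides of 0.

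Among the 17 genes with at least 2 measured probe sets, all measured probe sets lay on the same side of 0 for 13. Of the 6 such genes at least 2-fold different by the brightest probe set, 4 were also at least 2-fold different by the mean of the measured ones, namely LAMA2 at -2.41, COL13A1 at 1.91, LAMC1 at 1.24 and ITGB4 at 1.06. LAMB1 averaged 0.94 and ITGB5 0.62. By that mean ITGB1 stood at 1.30 and ITGA6 at 1.06. The other 28 measured genes rest on a single measured probe set.

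The RefSeq start regions of 3 laminin genes are shown because LAMC1 and LAMB1, whose products join in the same trimers, stood together while LAMA2 stood opposite. Each window runs from 250 bases before to 50 bases after the start of the gene in GRCh38.p14, written 5′ to 3′ on the gene's strand. Capitals mark the letters GGGCGG (the GC box), TATAAA (the TATA box), ACGTG or GCGTG (cores of the element bound by hypoxia-inducible factors) and TGANTCA (the AP-1 element), on either strand, and a match names no bound factor.
LAMC1 (chr1:183023170-183023469, plus strand): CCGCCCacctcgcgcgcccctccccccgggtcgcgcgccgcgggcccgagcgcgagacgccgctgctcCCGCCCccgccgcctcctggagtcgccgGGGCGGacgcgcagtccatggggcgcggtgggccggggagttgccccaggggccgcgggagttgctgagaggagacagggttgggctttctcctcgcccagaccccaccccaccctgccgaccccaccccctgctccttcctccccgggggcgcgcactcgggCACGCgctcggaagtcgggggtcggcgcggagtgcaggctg
LAMB1 (chr7:108003112-108003411, minus strand): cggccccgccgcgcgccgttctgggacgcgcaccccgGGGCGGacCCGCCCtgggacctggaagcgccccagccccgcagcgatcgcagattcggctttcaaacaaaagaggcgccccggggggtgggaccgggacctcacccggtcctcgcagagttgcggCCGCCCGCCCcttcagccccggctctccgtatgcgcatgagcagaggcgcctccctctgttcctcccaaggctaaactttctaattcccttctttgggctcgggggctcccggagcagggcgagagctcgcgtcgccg
LAMA2 (chr6:128882888-128883187, plus strand): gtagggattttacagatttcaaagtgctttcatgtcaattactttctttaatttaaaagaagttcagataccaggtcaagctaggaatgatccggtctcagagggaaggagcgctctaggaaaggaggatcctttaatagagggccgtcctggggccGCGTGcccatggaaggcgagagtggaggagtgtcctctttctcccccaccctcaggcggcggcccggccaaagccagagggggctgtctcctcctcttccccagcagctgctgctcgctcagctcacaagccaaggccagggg

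The LAMC1 window held 3 matches to GGGCGG and 1 to GCGTG, and 79% of its bases were G or C. The LAMB1 window held 4 matches to GGGCGG, 2 of them overlapping, and was 71% G or C. The LAMA2 window held no GGGCGG and 1 GCGTG, and was 55.3% G or C. Over all 35116 windows in the RefSeq table, 45.0% held GGGCGG, 36.5% GCGTG, 21.4% ACGTG, 11.5% TATAAA and 7.71% TGANTCA. Of the 45 measured genes 33 had a window, some more than 1. Of their 46 windows 29 held GGGCGG, 17 GCGTG, 5 ACGTG, 6 TATAAA and 2 TGANTCA. The 35116 windows include those of dim genes too, so they are not a like set for comparison.

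The collagen chains went both ways. COL13A1, a transmembrane collagen of cell-matrix junctions, read 1347 in JMJD1A/JMJD1B siRNA cells and 129 in control siRNA cells, 10.4-fold higher. Its dimmer measured probe sets read 217 and 159 on the JMJD1A/JMJD1B siRNA array, against 62.8 and 109 on the control array. The direction was the same in all 3, with log2 ratios of 3.38, 1.79 and 0.55, but the size differed widely. The other transmembrane collagens with a probe set, COL23A1 and COL25A1, were dim.

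Type IV collagen, the network collagen of basement membranes, is encoded by gene pairs that lie head to head. COL4A4 read 597 in JMJD1A/JMJD1B siRNA cells and 165 in control siRNA cells, 3.62-fold higher. Its neighbour COL4A3 was dim, and its brightest probe set read 82.7 in JMJD1A/JMJD1B siRNA cells and 24.9 in control siRNA cells on the same arrays. COL4A6 read 92.5 in JMJD1A/JMJD1B siRNA cells and 296 in control siRNA cells, 3.20-fold lower, whereas its neighbour COL4A5 read 1174 on the JMJD1A/JMJD1B siRNA array, against 758 on the control array, a log2 ratio of 0.63. All 7 COL4A3 probe sets were dim, however, with 5 on the higher and 2 on the lower side, from -2.83 to 3.52, so no direction can be given for it. The measured probe sets of COL4A5 and COL4A6 lay on opposite sides. The most widespread chains of this type, COL4A1 and COL4A2, were dim, at 12.9 and 1.46 in JMJD1A/JMJD1B siRNA cells and 7.26 and 44.5 in control siRNA cells. Each measured type IV gene rests on a single measured probe set.

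In the RefSeq table the starts of COL4A3 and COL4A4 lie 419 bases apart on opposite strands, and their windows share 82 bases. Those of COL4A5 and COL4A6 lie 380 bases apart and share 121. The windows of COL4A4 and COL4A6 are shown because they are the measured type IV genes past 2-fold, on opposite sides, and that of COL13A1 because it had the largest difference. Capitals have the meaning given above, and for COL4A6 the outermost of 2 windows in the table is shown.
COL4A4 (chr2:227164156-227164455, minus strand): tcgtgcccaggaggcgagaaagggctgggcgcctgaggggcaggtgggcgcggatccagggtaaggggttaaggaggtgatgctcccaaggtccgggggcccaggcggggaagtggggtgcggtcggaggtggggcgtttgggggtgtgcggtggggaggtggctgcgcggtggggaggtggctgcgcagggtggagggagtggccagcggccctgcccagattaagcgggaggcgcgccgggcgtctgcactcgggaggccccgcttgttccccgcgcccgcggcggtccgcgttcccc
COL4A6 (chrX:108439409-108439708, minus strand): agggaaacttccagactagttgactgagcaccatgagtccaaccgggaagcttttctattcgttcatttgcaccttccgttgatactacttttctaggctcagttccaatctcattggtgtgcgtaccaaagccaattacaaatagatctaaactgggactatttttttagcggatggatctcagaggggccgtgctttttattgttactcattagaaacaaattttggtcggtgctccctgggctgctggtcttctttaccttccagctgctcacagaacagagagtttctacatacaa
COL13A1 (chr10:69801656-69801955, plus strand): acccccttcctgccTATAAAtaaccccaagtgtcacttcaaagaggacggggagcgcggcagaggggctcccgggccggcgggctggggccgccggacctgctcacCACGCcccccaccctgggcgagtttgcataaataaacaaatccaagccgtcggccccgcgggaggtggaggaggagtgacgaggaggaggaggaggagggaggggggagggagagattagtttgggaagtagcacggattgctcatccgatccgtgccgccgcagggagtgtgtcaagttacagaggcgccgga

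The COL13A1 window held 1 match to TATAAA and 1 to GCGTG. The COL4A4 and COL4A6 windows held none of the 5 motifs, at 74% and 43.7% G or C.

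Among fibril-forming collagens, 4 of 11 were measured and none differed 2-fold on the scale of the deposited signals. COL1A1, a chain of the main collagen of connective tissue, read 631 in JMJD1A/JMJD1B siRNA cells and 324 in control siRNA cells, a log2 ratio of 0.96, with its other measured probe sets at 0.43 and 0.59. COL1A2, which supplies the other chain of the same fibre, was dim at 7.36 in JMJD1A/JMJD1B siRNA cells and 42.8 in control siRNA cells. COL1A1 passed 2-fold after quantile normalization and after loess, at 1.05 and 1.04. COL27A1 read 418 in JMJD1A/JMJD1B siRNA cells and 375 in control siRNA cells, a log2 ratio of 0.16, and COL5A2 stood at 0.53 and COL11A2 at 0.36. The summed signal of the 8 fibroblast markers was 655 on the JMJD1A/JMJD1B siRNA array and 338 on the control array. ACTA2 (387 in JMJD1A/JMJD1B siRNA cells and 180 in control siRNA cells) and DCN (67.3 in JMJD1A/JMJD1B siRNA cells and 39.1 in control siRNA cells) were the 2 that were measured, while PDGFRA, PDGFRB, FAP, THY1, LUM and POSTN were dim. The part of these markers in the collagen values was not tested.

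Of the collagens associated with fibrils, 6 of 10 were measured. COL16A1 read 24.9 in JMJD1A/JMJD1B siRNA cells and 116 in control siRNA cells, at least 2.31-fold lower against the filter. COL12A1 read 101 on the JMJD1A/JMJD1B siRNA array, against 192 on the control array, a log2 ratio of -0.93, and -1.02 after median scaling, but its other measured probe sets had 0.77 and 0.27. COL9A3 read 407 in JMJD1A/JMJD1B siRNA cells and 326 in control siRNA cells, a log2 ratio of 0.32. COL9A2 stood at -0.36, COL20A1 at 0.43 and COL22A1 at 0.01.

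COL7A1, which forms the anchoring fibrils under epithelia, read 169 in JMJD1A/JMJD1B siRNA cells and 93.2 in control siRNA cells, a log2 ratio of 0.86 with a second probe set at 0.45. COL6A2, a chain of beaded filaments, read 307 in JMJD1A/JMJD1B siRNA cells and 189 in control siRNA cells, a log2 ratio of 0.70, while its partner chain COL6A1 was level at 1209 on the JMJD1A/JMJD1B siRNA array, against 1173 on the control array. The COL6A1 value rests on 1 measured probe set of 8, the others being dim. COL18A1, the source of endostatin, read 585 in JMJD1A/JMJD1B siRNA cells and 411 in control siRNA cells, a log2 ratio of 0.51. The 25 dim collagen genes had signals between 1.46 and 82.7. Of these, COL4A3, COL5A3 (56.7 in JMJD1A/JMJD1B siRNA cells and 23.6 in control siRNA cells) and COL6A3 (65.3 in JMJD1A/JMJD1B siRNA cells and 26.6 in control siRNA cells) passed the filter value on the JMJD1A/JMJD1B siRNA array but not in the mean of both.

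**Figure D3:**
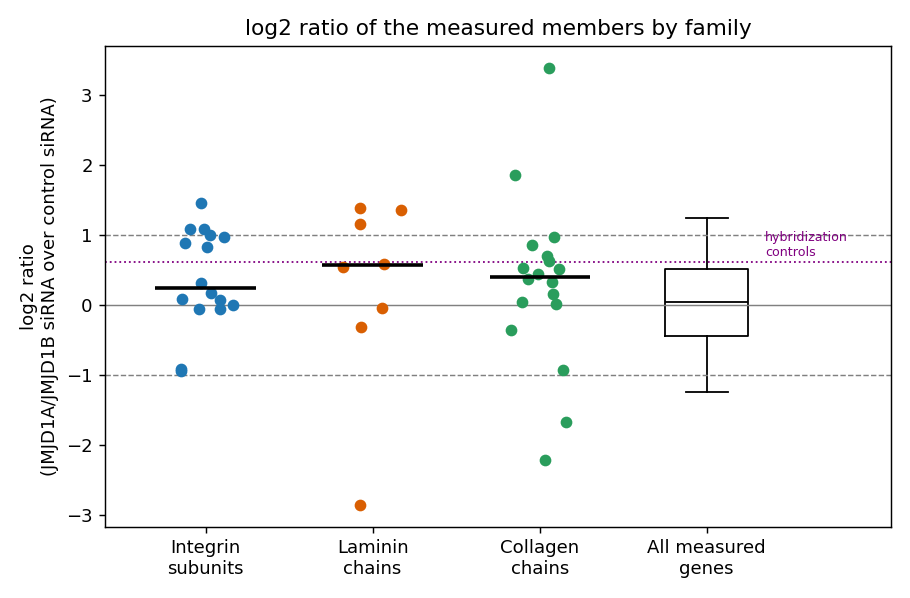
Log2 ratio (JMJD1A/JMJD1B siRNA over control siRNA) of the 16 measured integrin subunits, 8 laminin chains and 18 collagen chains, with the family median as a bar, beside all 12561 measured genes as a box (median and quartiles, whiskers at the percentiles 5 and 95). The family medians are 0.24, 0.56 and 0.40, the median of all measured genes is 0.04, and the dotted line at 0.61 is the median of the hybridization controls.

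Over all measured genes 8.91% were higher and 8.53% lower by 2-fold or more, and the family shares below stand beside these. Compared with each other, the laminin chains had the highest median log2 ratio, 0.56 over 8 genes, and 3 (37.5%) were higher and 1 (12.5%) lower by 2-fold or more. The collagen chains had a median of 0.40 over 18 genes, with 2 (11.1%) higher and 2 lower by 2-fold or more. The integrin subunits had a median of 0.24 over 16 genes, with 3 (18.8%) higher and 0 lower by 2-fold or more. This order of the medians depended on the filter. Integrins had the highest with a filter at a signal of 100 (0.92, against 0.56 for laminins and 0.44 for collagens) and with both arrays at the filter (0.83, against 0.56 for laminins and 0.43 for collagens), and collagens had it without a filter (0.32, against 0.24 for laminins and 0.17 for integrins). The laminin figures rest on few genes, and no test of the differences between families is possible with 1 array a group. The whole range was -2.22 to 3.38 for collagens, -2.86 to 1.38 for laminins and -0.94 to 1.45 for integrins. The range from the lower to the upper quartile was 0.02 to 0.68 for collagens, -0.12 to 1.20 for laminins and -0.02 to 0.97 for integrins. With the arrays level on the hybridization controls all 3 medians would be below 0, at -0.05 for laminins, -0.21 for collagens and -0.37 for integrins, against -0.57 for all measured genes. On that scale COL13A1 and COL4A4 alone would stay at least 2-fold higher, against 2.15% of all measured genes. There 2 integrins, 1 laminin and 3 collagens would be at least 2-fold lower, against 27.7% of all measured genes.

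By role, the integrin values were uneven. Of the 5 measured beta subunits 2 were at least 2-fold higher, and their median was 1.00. The 3 measured subunits for RGD-containing ligands had a median of 0.96, the 3 laminin-binding alpha subunits 0.31, the 2 collagen-binding alpha subunits 0.08 and the 3 leukocyte alpha subunits -0.01. Within the laminins the median was 1.15 for 3 beta chains and -0.05 for 3 alpha chains. In several pairs of genes whose products are known to assemble, both genes stood higher. These were ITGA6 at 0.83 and ITGB4 at 1.45, ITGA5 at 1.08 and ITGB1 at 1.00, and LAMB1 at 1.15 and LAMC1 at 1.38. ITGAV at 0.96 and ITGB5 at 1.08 were a further pair, though ITGB5 averaged 0.62 over its measured probe sets. In other pairs the ratios lay further apart. ITGA3 stood at -0.07 and ITGA2 at 0.08, both partners of the ITGB1 product. ITGB3, also a partner of the ITGAV product, stood at -0.92, with a second probe set at 0.02. Among the laminin chains LAMA2, at -2.86, stood opposite LAMB1 and LAMC1. In type IV collagen COL4A5 stood at 0.63 and COL4A6 at -1.68. The pairs were not fixed before the values were known.

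**Figure D4:**
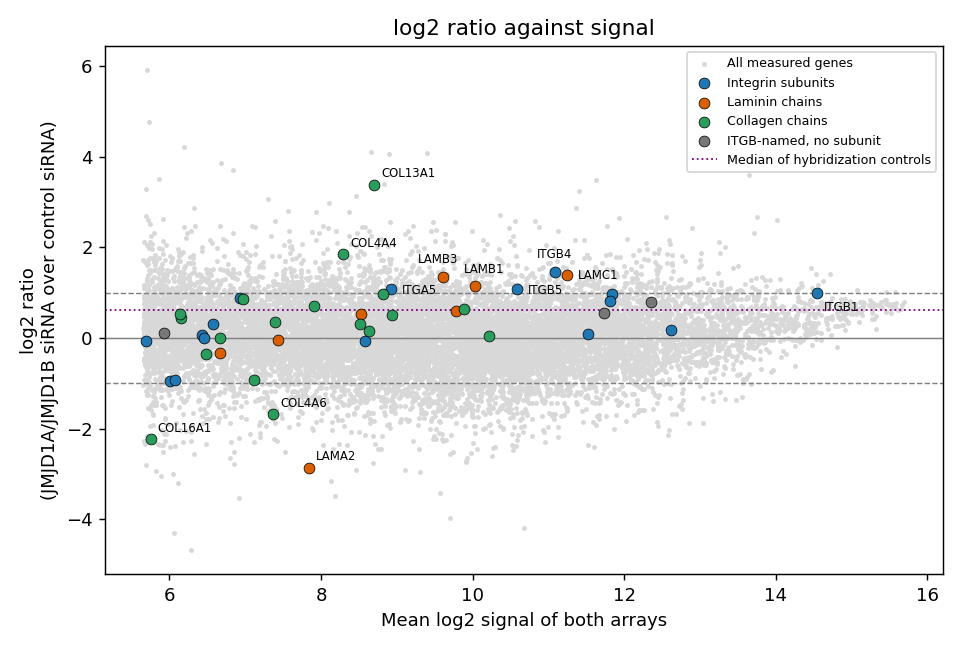
Log2 ratio (JMJD1A/JMJD1B siRNA over control siRNA) against the mean log2 signal of both arrays for the measured genes of the 3 families (coloured) over all measured genes (grey); dashed lines mark 2-fold and the dotted line the median of the hybridization controls. The coloured points at high signal all lie above 0, and ITGB1 lies at the far right, where the grey points also bend upward.

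Of the 8 genes at least 2-fold higher, 4 had a geometric mean signal of at least 1000 and 4 a lower one. COL13A1 and COL4A4, with the largest ratios, lay below that signal. All 12 measured genes with a geometric mean signal of at least 1000 had a ratio above 0, with a median of 0.89, against a median of 0.05 for the 5171 genes of that brightness in all. The 33 dimmer ones had a median of 0.31, against 0.03 for all measured genes below that signal. The log2 ratio and the mean log2 signal correlated with a Pearson r of 0.42 over the 45 genes and 0.02 over all 12561, a description over genes that share the same 2 arrays. The dividing signal of 1000 was chosen after these values were known.

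Genes of the surrounding matrix and adhesion machinery are given for context. The 21 measured adhesion plaque genes had a median of 0.16, with 4 higher and 1 lower by 2-fold or more. Beside these counts, 8.91% of all measured genes were higher and 8.53% lower by that much. ITGB1BP1, described above with the genes shown apart, is also on this list, so the list is not fully separate from the members. ILK, the kinase-like scaffold on beta integrin tails, read 1125 in JMJD1A/JMJD1B siRNA cells and 466 in control siRNA cells, 2.41-fold higher. The adaptors BCAR1 (2.29-fold) and PXN (2.04-fold) and the integrin activator TLN1 (2.04-fold, with a second probe set at 0.00) were also higher, and the kinase SRC was 3.14-fold lower, although a second SRC probe set had a log2 ratio of 0.48. The integrin activator FERMT2 read 3059 on the JMJD1A/JMJD1B siRNA array, against 1536 on the control array, just short of 2-fold.

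Of 5 measured basement membrane partners, NTN4 was 2.44-fold and AGRN 2.14-fold higher and none was 2-fold lower. The 3 AGRN probe sets lay between -0.87 and 1.46. Of 6 other receptors for laminin or collagen only the proteoglycan SDC4 passed 2-fold, at 6877 in JMJD1A/JMJD1B siRNA cells and 2509 in control siRNA cells (2.74-fold higher). Of 7 other matrix ligands only CCN2 did, at least 2.06-fold higher. These lists hold few genes, and 8.91% of all measured genes were at least 2-fold higher.

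Collagen processing genes numbered 11, all measured, with 2 (18.2%) higher and 1 (9.09%) lower by 2-fold or more. Over all measured genes 8.91% were higher and 8.53% lower by that much. SERPINH1, the collagen-specific chaperone, read 2012 in JMJD1A/JMJD1B siRNA cells and 4350 in control siRNA cells, 2.16-fold lower. CRTAP, part of the complex that modifies collagen prolines, was 2.17-fold higher by the brightest of 5 probe sets, which ran from 0.42 to 1.12, and PCOLCE, an enhancer of procollagen cleavage, at least 2.64-fold higher. Of 11 measured matrix proteases and inhibitors 2 (18.2%) were higher and 0 lower by 2-fold or more, and the median was 0.58. The collagenase gene MMP1 read 168 in JMJD1A/JMJD1B siRNA cells and 33.8 in control siRNA cells, at least 3.34-fold higher, and the sheddase ADAM17 read 5947 on the JMJD1A/JMJD1B siRNA array, against 2075 on the control array, 2.87-fold higher. All 3 ADAM17 probe sets had log2 ratios of 1.25 or more. The medians were 0.85 for basement membrane partners, 0.24 for other receptors, -0.01 for other matrix ligands and 0.28 for collagen processing, against 0.04 for all measured genes.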

How the data were processed

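Total RNA (0.5 ug per the labels' protocols) from 2 HCT116 cultures was measured on 1 array each. The authors deposited a linear signal intensity for 54675 probe sets per array. Per the submitters' processing notes these intensities come from MAS5, whose version and options are not given in the sources used here. The mean after trimming 2% of the deposited intensities at each end was 500.1 on both arrays. Both columns were mapped to a sample and 0 were left over.

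Names came from the platform annotation, in which 41091 non-control probe sets carry 1 symbol, 1801 several and 11721 none; only the first were used. Gene identifiers were looked up in the RefSeq table of GRCh38.p14 for biotype, which removed 8 antisense, divergent or pseudogene symbols, and no member's symbol changed. Promoter windows came from RefSeq in the same build.

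Log2 signals were used without a pseudocount, and log2 ratios are JMJD1A/JMJD1B siRNA over control siRNA. The brightest probe set by mean log2 signal stood for a gene, with a filter at 50.4. A fold with the words "at least" has the dimmer signal raised to 50.4 and allows for no error in the brighter one. The signals behind each value can differ by probe design, so levels were not compared between genes. Both signals are given for measured members at least 1.5-fold different and for the 2 brightest of each role group. Members, lists and rules were chosen with earlier results of these data known. Alternatives were other scalings (median, quantile, loess with a span of 0.3, hybridization controls), a pseudocount of 16, other filters, other probe set rules and fold thresholds of 1.5 and 3. Calculations used Python 3.11.15, numpy 2.4.6, pandas 2.3.3 and statsmodels 0.14.6. The procedure was also run on simulated data. Their planted changes were larger than 2-fold and their noise smaller than the spread among probe sets of 1 gene. That run therefore cannot show how reliable differences near 2-fold are.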

Additional observations from a re-analysis of the deposited data

Results flagged for a closer look

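Signals outside the gene comparison were examined for probe sets that the choice of genes left out. On 3 of them the JMJD1A/JMJD1B siRNA array passed the signal filter and exceeded the control array. ITGB8-AS1, an antisense transcript of ITGB8, read 69.6 in JMJD1A/JMJD1B siRNA cells and 11.8 in control siRNA cells, at least 1.38-fold higher against the filter of 50.4. The log2 ratio of its deposited signals, 2.56, rests on a control signal under that filter, and the probe set was dim in the mean of both. ITGB1-DT, a divergent transcript next to ITGB1, read 134 in JMJD1A/JMJD1B siRNA cells and 90.1 in control siRNA cells, a log2 ratio of 0.57. The pseudogene LAMB2P1 read 127 in JMJD1A/JMJD1B siRNA cells and 99.4 in control siRNA cells, a log2 ratio of 0.36. The last pair of ratios would turn negative if the hybridization controls set the scale.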

How the results depend on the processing

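No paired analysis was possible because each group is 1 array. With the arrays level on the hybridization controls the medians reversed to -0.37 (integrins), -0.049 (laminins) and -0.21 (collagens) by construction, and the numbers at least 2-fold higher were 0 integrins and 0 laminins, with 2 integrins at least 2-fold lower (12.5%, against 27.7% of all measured genes). Median scaling left 1 integrin higher and 2 lower by 2-fold or more, and quantile normalization and loess gave 1 integrin at least 2-fold lower each, ITGA2B at -1.02 and -1.01. Without a filter the numbers at least 2-fold higher were 5 integrins and 8 collagens, those at least 2-fold lower 2 integrins, 3 laminins and 7 collagens, and the laminin median 0.24. A filter at a signal of 100 gave an integrin median of 0.92 and 1 collagen at least 2-fold lower, and a filter on both arrays 0.83 and 1. Without _x_at and _s_at probe sets the laminin median was 1.25 over 4 genes and the collagen median 0.082 over 10, with 1 collagen at least 2-fold higher. At 1.5-fold 7 integrins and 6 collagens were higher and 2 integrins lower, and at 3-fold 0 integrins and 0 laminins were higher. These changes of the filter, the probe sets and the threshold alter which genes are counted, and beyond that the cause was not tested. Among the alternatives, shares over all measured genes were computed only for loess (8.22% at least 2-fold lower) and the hybridization controls. Counts under the other alternatives therefore have no such share to stand beside. Adding the ITGB-named genes that are no subunit, an alternative chosen after seeing the data, left the integrin counts unchanged. The 11 genes at least 2-fold different kept their direction under every alternative that retained them. For most alternatives this could not be otherwise. A filter leaves a ratio as it is, a pseudocount keeps its sign, and median scaling and the hybridization controls shift all ratios by less than the 2-fold bound. Only quantile normalization, loess and the other probe set rules could have changed a direction. The mean of measured probe sets could do so only for genes with at least 2 of them. With the arrays level on those controls 5 of 11 stayed at least 2-fold different, by the mean of measured probe sets and by median scaling 9 each. Detection calls were not used here, so how far signals near the filter stand above background is unknown.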
